A study of Rattus norvegicus with 24 samples.

Results

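Cytosolic ribosomal protein genes were followed in rat thyroid under iodine deficiency and perchlorate. Members were the array features (probe sets, each a set of short probes for 1 transcript) whose platform annotation gives exactly 1 symbol and that symbol is Rpl or Rps followed by a digit, or Rplp0, Rplp1, Rplp2 or Rpsa, leaving out the Rps6k kinases and pseudogene symbols. The rule found 48 genes on 55 probe sets, out of 14217 genes with 1 symbol on 31042 probe sets. Of the 48 genes, 33 belong to the large and 15 to the small subunit, and 6 are paralogs of a core gene (Rpl3l, Rpl7l1, Rpl26l1, Rpl39l1, Rps27l and Rps4y2). The brightest probe set stands for a gene. Another 36 ribosomal protein probe sets carry several symbols and are outside the rule; they are given as counts only, and Rplp1, Rps18 and Rpl32 were therefore not analysed here. In all, 46 of the 48 genes passed the filter on low signal, and Rpl30 and Rpl3l did not.

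Thyroids came from adult male Sprague-Dawley rats kept for 2 months plus 1 day or 2 months plus 14 days. At each time there were 4 groups of 3 arrays: controls on normal diet and normal water; perchlorate, on normal diet with 95 mg potassium perchlorate per liter of drinking water for the last 1 or 14 days; the iodine-deficient diet with normal water for the whole period; and the iodine-deficient diet with the same perchlorate water for the last 1 or 14 days. These groups are called control, perchlorate, diet and both, at day 1 and day 14. Perchlorate competes with iodide at the sodium iodide symporter, and the design text sets out to separate the effect of the diet over about 2 months from that of perchlorate over 1 or 14 days. The labels do not state that every sample came from its own animal. The p-values therefore set each difference only against the spread among these samples, some of which may be technical.

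Cytosolic ribosomal proteins are made in near-equal amounts, because each ribosome takes 1 copy of nearly every one. Their mRNAs are among the most abundant in any cell. Most start with a C followed by an unbroken stretch of pyrimidines, the terminal oligopyrimidine tract, through which growth signals acting by the kinase mTOR control how fast they are translated. In the thyroid, thyrotropin drives follicular cells to grow and to make thyroglobulin, which calls on this machinery. Array signal reads the mRNA amount and not its translation.

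The start regions of 43 of the 48 genes were in the RefSeq promoter table (assembly GRCr8, 300 bases from 250 before to 50 after the annotated first base). A run of 5 or more C or T covered the annotated first base in 20 of these 43 (46.5%), against 11.96% (4003 of 33469) of the rat promoters in that table. The first base was C in 17 of 43 (39.5%), against 24.1% of all. Whether transcription starts at the annotated base was not checked, so a gene counted without a run may still carry the tract. The following sequences show 45 bases before the first base and 15 from it on, for 5 genes whose mRNA was lower on the deficient diet and 3 bright genes whose mRNA was not called. Capitals mark the unbroken run of C and T that covers the annotated first base, which is base 46.
Rplp0: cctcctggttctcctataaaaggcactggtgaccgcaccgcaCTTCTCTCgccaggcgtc
Rpl14: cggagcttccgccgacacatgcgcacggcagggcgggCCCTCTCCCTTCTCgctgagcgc
Rps15: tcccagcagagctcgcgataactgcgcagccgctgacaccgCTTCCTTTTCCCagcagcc
Rps9: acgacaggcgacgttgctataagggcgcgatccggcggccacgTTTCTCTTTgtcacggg
Rpsa: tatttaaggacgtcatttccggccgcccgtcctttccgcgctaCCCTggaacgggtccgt
Rps23: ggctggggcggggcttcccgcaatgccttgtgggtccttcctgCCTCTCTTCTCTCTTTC
Rps3a: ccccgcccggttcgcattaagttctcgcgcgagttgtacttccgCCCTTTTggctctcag
Rpl13a: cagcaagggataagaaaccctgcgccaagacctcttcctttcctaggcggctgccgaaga
In GRCr8 these lie at chr12:46718376-46718435 (minus strand) for Rplp0, chr8:129163575-129163634 (plus) for Rpl14, chr7:10068101-10068160 (minus) for Rps15, chr1:74430423-74430482 (minus) for Rps9, chr8:128728834-128728893 (plus) for Rpsa, chr2:23814472-23814531 (plus) for Rps23, chr2:173827028-173827087 (minus) for Rps3a and chr1:104748899-104748958 (minus) for Rpl13a. The run was 8 bases long in Rplp0, 14 in Rpl14, 12 in Rps15, 9 in Rps9, 4 in Rpsa and 7 in Rps3a, and 21 in Rps23, where it goes on past the bases shown. In Rpl13a a purine stood at the annotated first base, so there was no run over it. Both genes whose mRNA was lower and genes whose mRNA was not called thus carried such a run.

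Other short motifs were searched in the same 300 bases. CCGGAAG, the core bound by ETS-family factors, stood on either strand in 10 of 43 members (23.3%) and in 8.75% of all promoters. GGGCGG, the core GC box, stood on either strand in 26 of 43 (60.5%) and in 33.1% of all. TATAA on the gene's own strand stood in 6 of 43 (14.0%), against 18.4% of all. A match is a description of these letters and not a bound site.

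Signal was read as log2(intensity + 16) after quantile normalization between arrays, so 1 unit is a doubling and the lowest possible value is 4. Members were bright: 31 of the 48 had a mean of 12 or more, a level that 734 probe sets reached in all. Rps23, a small-subunit protein at the decoding centre, was the brightest member and ranked between 2 and 5 among all probe sets on each of the 24 arrays. Its normalised signal took only 4 values, from 14.15 to 14.30, because quantile normalization gives each rank a fixed value; before it, the range was 14.14 to 14.38. Rps3a (mean 13.91), Rpl3 (13.87) and Rps29 (13.74) followed, each with its mean over all arrays. The dimmest were Rpl30 (5.46), Rpl3l (5.70), Rpl28 (6.45) and Rpl39l1 (6.99). Rpl30 and Rpl28 encode core proteins of the large subunit; this order is of probe set signals, which depend on the probes, and is no order of mRNA amounts. The median SD within a group was 0.137 over the members tested, against 0.278 over all 18625 probe sets tested and 0.182 over those with a mean of 12 or more.

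Arrays within a group correlated at 0.851 to 0.98 (Pearson r over probe sets, median 0.973) and no pair held identical values. Perchlorate day 1 replicate 18 stood apart, with a median absolute difference of 0.66 from the gene medians against 0.12 to 0.27 on the other arrays, and control day 1 replicate 22 came next. The log2 ratio of the 3' to the 5' control probe sets, a sign of RNA quality, was highest on replicate 18 for beta-actin (3.93) and on replicate 22 for Gapdh (3.34). Replicate 2 of both at day 1 was level with replicate 22 for Gapdh (3.34) and read 3.69 for beta-actin. The mean Gapdh ratio was 2.79 with both and 2.52 in control at day 1 (SD 0.49 and 0.75), and 2.03 and 1.80 at day 14 (SD 0.15 and 0.16); its part in the results was not tested. The median member was 0.34 above its own 24-array median on replicate 18 and 0.16 above on replicate 22. The iodide transporter Slc5a5 was higher on the deficient diet (log2 fold change 0.63, limma adjusted p = 0.00065), and thyroglobulin (Tg), the hormone precursor that marks follicular cells, had a mean log2 signal of 13.79 and differed by -0.03 (adjusted p = 0.74). In bulk tissue, fewer cells of a type and less RNA per cell cannot be told apart.

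**Figure D1:**
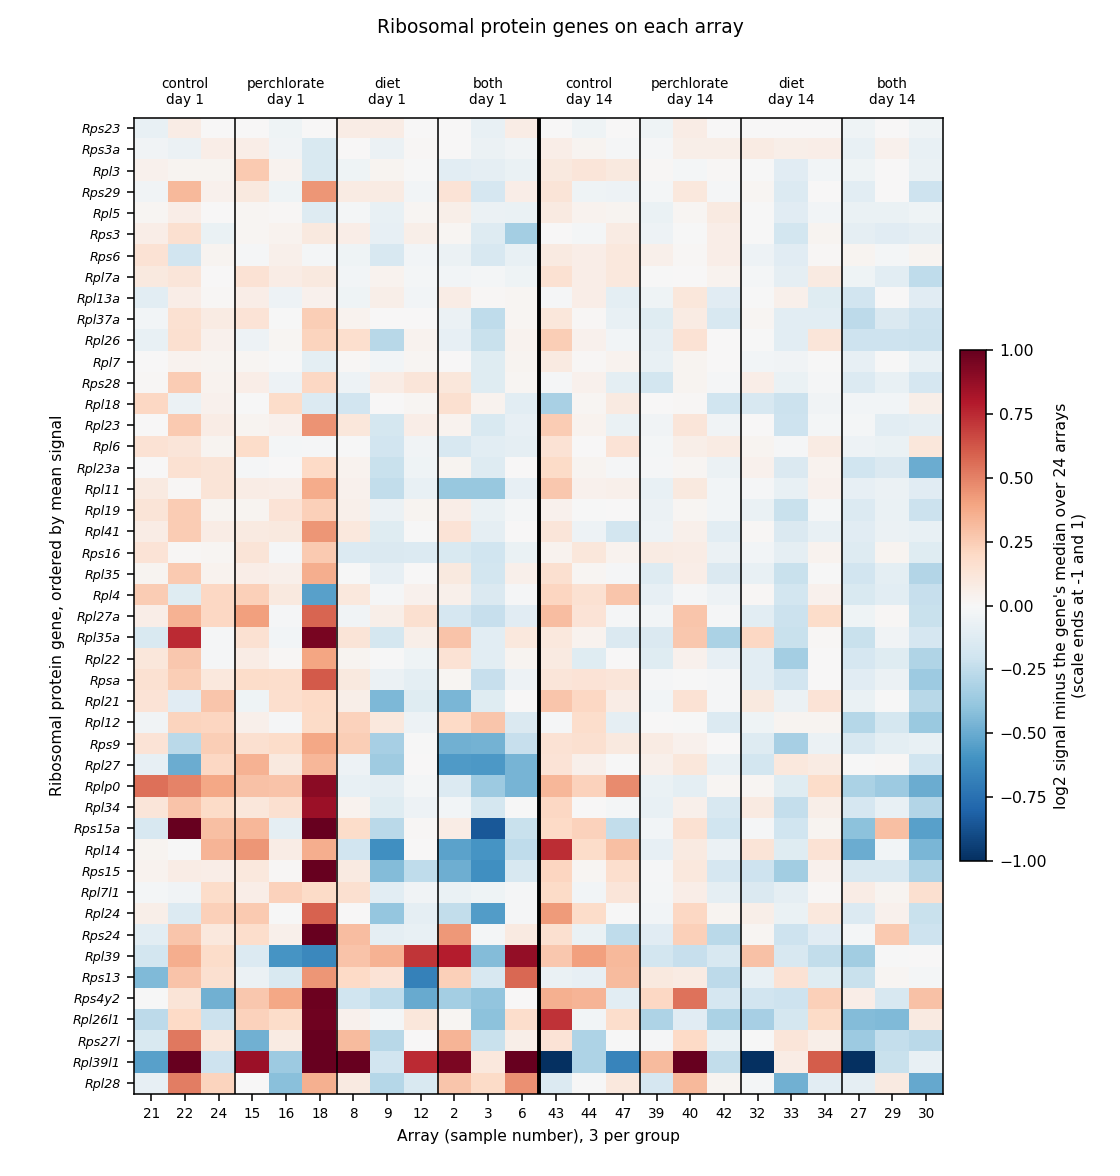
Log2 signal of the 46 tested ribosomal protein genes on each of the 24 arrays, as the difference from the gene's median over all arrays (colour, from -1 to 1); rows run from the brightest gene to the dimmest and columns are arrays in 8 groups of 3. Perchlorate day 1 replicate 18 is red across many genes, and 43 of 46 genes lie below their own median on replicate 27 of both at day 14.

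Members were compared first between the 12 arrays on the deficient diet and the 12 on the normal diet, as the mean of 4 group differences over both days and both kinds of water. Results given for or on the diet, with no day named, are from this comparison. Its deficient-diet side includes the groups given both, so it is not the diet alone. Of 46 members tested, 8 were lower on the deficient diet and 0 higher, at an adjusted p under 0.05 by limma with Benjamini-Hochberg adjustment over 18625 probe sets. Over all probe sets, 1.93% were called lower and 2.85% higher. The fold change was negative in 44 of the 46 members and in 49.6% of all probe sets. The median log2 fold change was -0.13 over the members and 0.00 over all tested. Both subunits were among the 8: Rplp0, Rpl14, Rpl27a and Rpl11 belong to the large subunit, and Rps15, Rps9, Rpsa and Rps16 to the small.

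Rplp0 encodes the core protein of the ribosomal stalk, the flexible arm of the large subunit that recruits elongation factors. Its signal at day 1 was 12.45, 12.39 and 12.29 in control (replicates 21, 22 and 24), 12.19, 12.19 and 12.80 with perchlorate (15, 16 and 18), 11.82, 11.81 and 11.89 on the diet (8, 9 and 12), and 11.77, 11.54 and 11.43 with both (2, 3 and 6). At day 14 it was 12.23, 12.13 and 12.37 in control (43, 44 and 47), 11.84, 11.80 and 11.92 with perchlorate (39, 40 and 42), 11.92, 11.78 and 12.08 on the diet (32, 33 and 34), and 11.59, 11.54 and 11.41 with both (27, 29 and 30). The control groups were the highest of their day except for the perchlorate group of day 1, and the group given both was the lowest at each time, with no array overlapping its control. Across both days it was lower on the deficient diet, with a log2 fold change of -0.50 (SE 0.07, 95% interval -0.65 to -0.36, limma adjusted p = 0.00039). All 12 deficient-diet arrays lay below the mean of the normal-diet group of the same day and water.

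The diet difference of Rplp0 was -0.68 in the day 1 groups alone (limma adjusted p = 0.0011) and -0.33 in the day 14 groups alone, where it did not pass (adjusted p = 0.219). The difference between days was 0.35 (SE 0.14, adjusted p = 0.845). It was -0.43 without perchlorate (adjusted p = 0.037) and -0.58 with perchlorate in both arms (adjusted p = 0.012), and those did not differ past the threshold either (difference -0.15, SE 0.14, adjusted p = 0.998). These splits were chosen after the values were seen.

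Rpl14 encodes a protein of the large subunit. Its signal at day 1 was 11.48, 11.45 and 11.80 in control, 11.89, 11.53 and 11.82 with perchlorate, 11.26, 10.84 and 11.46 on the diet, and 10.92, 10.87 and 11.20 with both, in the same replicate order. At day 14 it was 12.19, 11.64 and 11.75 in control, 11.38, 11.54 and 11.39 with perchlorate, 11.58, 11.33 and 11.60 on the diet, and 10.96, 11.43 and 11.00 with both. The groups given both lay below control with no overlap at either time, while the diet group of day 1 overlapped its control. The diet effect over both days was -0.45 (SE 0.09, limma adjusted p = 0.0053), and 12 of 12 deficient-diet arrays lay below the mean of their matched normal-diet group. Averaging both Rpl14 probe sets gave -0.28, which was not called. A second Rpl14 probe set was too dim to be tested (mean 4.67).

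Rps15, a small-subunit protein needed for export of the pre-ribosome from the nucleus, was 11.28, 11.32 and 11.31 in control at day 1 and 10.76, 10.63 and 11.09 with both. With perchlorate at day 1 it was 11.35 and 11.26 on replicates 15 and 16 and 12.33 on replicate 18. The high value on replicate 18 sits in the normal-diet arm of the diet comparison. On the diet alone Rps15 overlapped control at day 1 (11.33, 10.81 and 11.00). At day 14 it overlapped as well, with 11.04, 10.90 and 11.29 on the diet against 11.46, 11.27 and 11.42 in control. With both at day 14 (11.09, 11.09 and 10.94) it lay below control without overlap. The diet effect was -0.39 (SE 0.10, limma adjusted p = 0.032), and without perchlorate replicate 18 and control replicate 22 it was -0.30 (adjusted p = 0.014). The call was lost in 16 of 37 alternatives, among them values as deposited and several that left out 1 array. It was below the matched normal-diet mean on 11 of 12 arrays.

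Rps9 is a small-subunit protein whose gene is often used as a reference. Its diet effect over both days and both kinds of water was -0.29 (SE 0.07, limma adjusted p = 0.018). It was below the matched mean on 11 of 12 arrays. In splits chosen after the values were seen it was -0.19 without perchlorate (limma adjusted p = 0.460) and -0.40 with perchlorate in both arms (0.087). At day 14 its 3 control arrays read 12.50, 12.52 and 12.45, and its diet arrays 12.23, 12.03 and 12.30, with no overlap. At day 1 control (12.50, 12.09 and 12.61) and diet (12.60, 12.03 and 12.36) overlapped.

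Rpsa, the small-subunit protein also known as the laminin receptor precursor, had 3 probe sets. All 3 were called lower on the deficient diet, at -0.25 (limma adjusted p = 0.014), -0.38 (0.0014) and -0.35 (0.036). The brightest read 12.96, 12.98 and 12.96 in control at day 14 against 12.73, 12.65 and 12.84 on the diet and 12.73, 12.78 and 12.48 with both. Control lay above both of those groups on all arrays, and 12 of 12 deficient-diet arrays lay below their matched mean.

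The other 3 called members fell by less than Rps9, and were below the matched mean on 11 (Rpl27a), 12 (Rpl11) and 12 (Rps16) of 12 arrays. Rpl27a was -0.25 (SE 0.07, limma adjusted p = 0.040), a call lost in 22 of 37 alternatives, Rpl11 was -0.21 (SE 0.05, adjusted p = 0.024) and Rps16 was -0.16 (SE 0.04, adjusted p = 0.027). Rpl11 is the large-subunit protein that, free of the ribosome, binds the p53 regulator Mdm2. Rps16 read 12.98 on each of the 3 diet arrays of day 1, below its 3 controls at 13.26, 13.13 and 13.14.

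**Figure D2:**
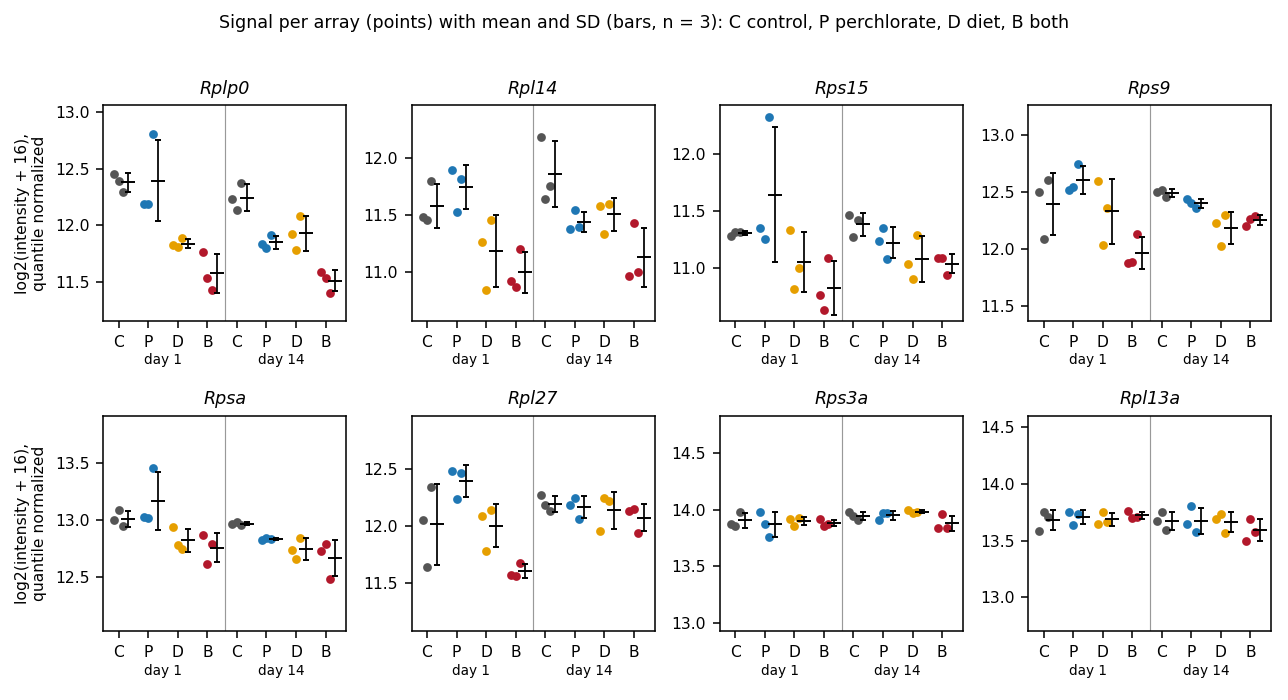
Log2 signal of 8 ribosomal protein genes on each array (points, 3 per group), with the group mean and SD beside them, for control (C), perchlorate (P), diet (D) and both (B) at day 1 and day 14; every panel spans the same range of log2 units. Rplp0 falls to 11.41 to 11.77 in the groups given both, against 12.13 to 12.45 in the controls, while Rps3a and Rpl13a range over 0.24 and 0.30 (0.28 and 0.47 as deposited).

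The diet difference was set beside the brightness of the probe set, in bins chosen after the values were seen. The median was -0.15 over the 7 members with a mean signal under 9, -0.33 over the 8 from 9 to 12, -0.23 over the 8 from 12 to 13, and -0.10 over the 23 at 13 or more. The medians of all probe sets in these bins were -0.01, 0.01, 0.03 and 0.02. Of the called members 3 lay between 9 and 12, 3 between 12 and 13 and 2 above, where 1.89%, 3.45% and 2.35% of all probe sets were called lower. The part played by the scanner's upper range, or by quantile normalization at the top ranks, was not tested.

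**Figure D3:**
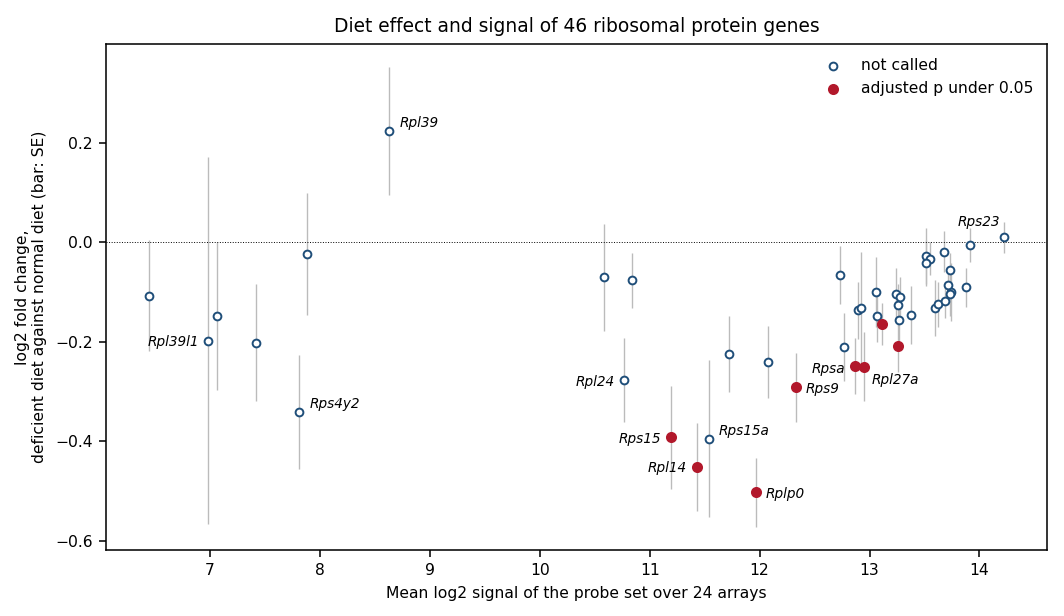
Log2 fold change of the 46 tested genes between deficient and normal diet (vertical, bars are SE) against the mean log2 signal of the probe set (horizontal); filled points passed an adjusted p under 0.05. Among called genes the 4 largest falls (Rplp0 at -0.50, Rpl14, Rps15 and Rps9) lie at means from 11.19 to 12.33, and the brightest gene, Rps23, is at 0.01.

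Several genes often used as constant references were members. Rpl13a was -0.02 on the diet (95% interval -0.10 to 0.07). It ranged over 0.30 in all after quantile normalization, and over 0.47 as deposited. The range thus depended on the scaling, so these values do not show constancy. Rps3a was -0.01 (-0.08 to 0.06), Rps23 0.01 (-0.05 to 0.07) and Rpl19 -0.13 (-0.21 to -0.04, limma adjusted p = 0.084). Rps6, the substrate of the S6 kinases, was -0.09 (-0.17 to -0.01, adjusted p = 0.21). Rplp0 and Rps9, used for the same purpose, were both called lower.

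The 5 paralogs tested did not pass in any comparison. Rps4y2 was -0.34 on the diet (SE 0.11, limma adjusted p = 0.086) and Rpl26l1 was -0.20 (adjusted p = 0.35). Rpl7l1 was -0.08 against -0.03 for Rpl7, Rpl26 was -0.13 and Rps27l was -0.15. Rpl39l1 varied most of all members, from 4.60 to 9.36 over the arrays. Its diet difference was 0.05 in the day 1 groups and -0.44 in the day 14 groups (SE 0.52 for each). At day 14 it read 5.72, 6.45 and 6.11 in control and 7.08, 8.53 and 6.52 with perchlorate. The groups did not overlap, but the difference of 1.28 (SE 0.74) did not pass (limma adjusted p = 0.487); at day 1 its control (6.22, 8.49 and 6.56) and perchlorate arrays (7.61, 6.40 and 9.36) overlapped. Its core partner Rpl39, encoded on the X chromosome, was one of only 2 members with a positive diet effect (0.22, SE 0.13, adjusted p = 0.34); the other was Rps23.

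Diet and perchlorate together were next compared with the control of the same day. At day 14, 4 of 46 members were lower and 0 higher, against 2.75% of all probe sets called lower and 6.10% called higher. These were Rplp0 (-0.73, SE 0.14, limma adjusted p = 0.0017), Rpl14 (-0.73, SE 0.18, 0.011), Rpl23a (-0.35, SE 0.10, 0.034) and Rpl7a (-0.24, SE 0.07, 0.035), each with its limma adjusted p last. Rpl23a, a large-subunit protein at the peptide exit where the signal recognition particle docks, read 13.48, 13.33 and 13.28 in control and 13.09, 13.15 and 12.80 with both. Rpl7a read 13.82, 13.74 and 13.78 in control and 13.62, 13.57 and 13.41 with both. All 3 treated arrays lay below all 3 controls in 23 of the 46 members, against 20.7% of all probe sets, and the fold change was negative in 43, against 58.3% of all. The median was -0.16 over the members and -0.06 over all probe sets. With intensities as deposited only Rplp0 of these 4 was called.

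At day 1 the same pair of treatments gave 1 call, Rplp0 (-0.80, SE 0.14, limma adjusted p = 0.0053), against 0.156% of all probe sets called lower and 0.446% higher. The groups did not overlap for 11 of 46 members, all lower, against 9.76% of all probe sets. The fold change was negative in 38 of 46 members, against 50.9% of all. The 2 dimmer probe sets of Rpsa were -0.57 (adjusted p = 0.030) and -0.54 (adjusted p = 0.26) at day 1, and -0.45 (adjusted p = 0.024) and -0.34 (adjusted p = 0.32) at day 14. The brightest Rpsa probe set was -0.25 at day 1 and -0.30 at day 14 and was not called. Rpl27 read 11.57, 11.56 and 11.67 with both at day 1 and 12.06, 11.64 and 12.35 in control; these overlapped, and the difference of -0.41 was not called (adjusted p = 0.26).

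Each treatment alone gave no call among the members on either day. For the diet alone the medians were -0.12 at day 1 (0.0537% of all probe sets called in either direction) and -0.11 at day 14 (0.220%), with 41 of 46 members negative each time, against 49.8% and 54.0% of all probe sets. As deposited the medians were -0.04 (34 negative) and -0.02 (28 negative), which lay 0.17 and 0.15 below the medians of all probe sets on that scale. Without control day 1 replicate 22 the day 1 median was -0.07, and without diet day 14 replicate 33 the day 14 median was -0.07. At day 1 the arrays did not overlap, all lower, for 6 members (6.54% of all probe sets) and at day 14 for 11 (11.2%). At an unadjusted p under 0.05 there were 4 members at day 1 (5.85% of all) and 2 at day 14 (9.51%). The diet-alone and both comparisons share the control arrays of their day.

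For perchlorate alone the median was 0.05 at day 1, when 0 of all 18625 probe sets (0.00%) were called, and -0.07 at day 14, when 3.57% of all were called in either direction. At day 1, 14 of 46 members were negative, against 52.0% of all, and 0 lay below control without overlap, against 4.21% of all. Without perchlorate replicate 18 the day 1 median was -0.02. At day 14, 37 of 46 members were negative, against 57.2% of all, and 9 lay below control without overlap, against 13.4% of all; 1, Rpl39l1, lay above, against 12.6%. Rplp0 was -0.39 (SE 0.14, limma adjusted p = 0.14) and Rpl14 -0.42 (SE 0.18, adjusted p = 0.25) at day 14. At an unadjusted p under 0.05 there were 4 members at day 1 (10.1% of all) and 3 at day 14 (14.4%).

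Perchlorate added to the deficient diet gave no member call on either day by limma. At day 1 the median was -0.03, 30 of 46 members were negative (50.1% of all probe sets) and 4 lay lower without overlap (8.05% of all), with 0.00537% of all called. At day 14 the median was -0.07, 36 were negative (54.6%) and 7 lay lower without overlap (13.0%), with 0.209% called. At an unadjusted p under 0.05 there were 2 members at day 1 (5.84% of all) and 4 at day 14 (7.96%).

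The change in the perchlorate difference from day 1 to day 14 had a median of -0.11, with 39 of 46 members negative (50.4% of all probe sets). By limma 0 members were called (0.553% of all) and 3 were under an unadjusted p of 0.05 (12.3%). Without perchlorate day 1 replicate 18 that median was -0.03. The interaction of diet and perchlorate at day 14 had a median whose sign changed with the scaling: -0.01 with 25 of 46 negative (49.5%), -0.13 with 38 negative as deposited, and 0.07 with 11 negative when arrays were centred on their medians. In the quantile-normalized values there were 0 members called (0.0161%) and 0 under an unadjusted p of 0.05 (3.11%). Controls of day 14 against those of day 1 had a median of -0.01 with 25 of 46 negative (49.9%), 0 members called (0.00%) and 0 under that unadjusted p (4.11%).

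**Figure D4:**
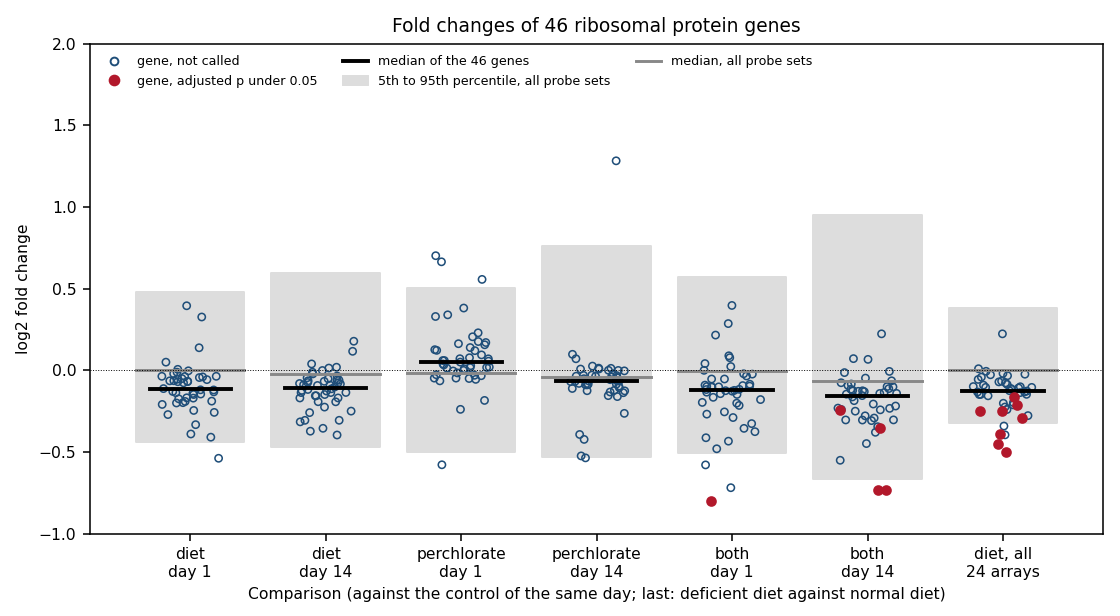
Log2 fold changes of the 46 tested genes (points, filled where the adjusted p is under 0.05) in 7 comparisons, with the median of the genes (black line) beside the median and the 5th to 95th percentile of all 18625 probe sets (grey). The gene median is below 0 in every comparison shown except perchlorate at day 1 (0.05), and all 13 filled points are below 0.

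The F test over the 8 groups called 3 of 46 members, a share below the 7.80% of all probe sets. They were Rplp0 (limma adjusted p = 0.00046), Rpl14 (0.015) and Rpl27 (0.030). Rpsa (0.050), Rps9 (0.060) and Rpl11 (0.082) came next and did not pass. Rpl27 had its highest group mean with perchlorate at day 1 (12.48, 12.24 and 12.47) and its lowest with both at day 1. Its diet effect was -0.24 (limma adjusted p = 0.058).

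The diet difference was read beside the start sequences: the median was -0.13 over the 20 members with a run of 5 or more and -0.12 over the 22 tested members without one. A run was scored only where it covered the annotated first base. This split therefore cannot separate genes with the tract from genes without it, and no conclusion on the tract is drawn.

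The 36 probe sets with several ribosomal protein symbols were read on the same arrays and so are no independent test. On the deficient diet 12 of 36 were called lower and 0 higher (1.93% and 2.85% of all probe sets), the median was -0.15 and 34 were negative. With both at day 14, 1 of 36 was called lower, a share near the 2.75% of all probe sets, and the median was -0.21.

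Other genes of the protein synthesis machinery were read from lists chosen with earlier results known. Over all probe sets, 1.93% were called lower and 2.85% higher on the diet. With both at day 14 those shares were 2.75% and 6.10%. Of 27 translation factors, 5 were lower on the deficient diet and 0 higher (median -0.17, 24 negative), with values in the limma fit: the elongation factor subunits Eef1g (-0.25, adjusted p = 0.0024) and Eef1d (-0.26, 0.016), the translocase Eef2 (-0.23, 0.015), Eif3l (-0.25, 0.024) and Eif5a (-0.32, 0.027). Of 34 ribosome assembly genes, 3 were lower and 0 higher (median -0.14): Polr1b, a subunit of RNA polymerase I (-0.43, 0.0029), the rRNA methyltransferase Nop2 (-0.35, 0.034) and Rrp9 (-0.44, 0.043). With both at day 14, 4 of these 34 were lower, among them Polr1b (-1.05, adjusted p = 0.00021) and Dkc1, the pseudouridine synthase (-0.73, 0.039). Of 11 other genes whose mRNAs are known for an oligopyrimidine start, Eef2 was lower and the filament gene Vim higher (0.58, adjusted p = 0.0090). That list shares genes with the translation factors, and Eef2 is the same call as the one counted there. Of 13 genes that control ribosome production, 0 were called in the diet comparison. Eif4ebp2, an inhibitor of the cap-binding factor Eif4e, was lower with both at day 14 (-0.84, adjusted p = 0.048). Of 73 mitochondrial ribosomal proteins 0 were called in any comparison, with a median of -0.08 on the diet.

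Markers of other cells moved between these groups as well. Over all probe sets, 2.85% were called higher and 1.93% lower on the diet, and 6.10% and 2.75% with both at day 14. With perchlorate alone at day 14, 3.57% were called in either direction. On the diet over both days, by limma, 2 of 9 markers of dividing cells (median 0.61), 3 of 8 of endothelium (0.44), 2 of 8 of macrophages (0.37) and 1 of 7 of fibroblasts (0.16) were higher, and 1 of 5 of C cells was lower (-0.14). With perchlorate alone at day 14, 6 of 9 markers of dividing cells, 5 of 8 of endothelium, 2 of 8 of macrophages and 4 of 7 of fibroblasts were higher and 1 of 2 of parathyroid was lower. With both at day 14, 9 of 9, 6 of 8, 7 of 8 and 5 of 7 were higher, while 2 of 5 C cell markers (median -1.24) and 1 of 2 parathyroid markers were lower. The summed intensity of the 8 macrophage markers ran from 1523 to 1573 in control and from 3239 to 5050 with both at day 14, and that of the 8 endothelial markers from 9876 to 12673 and from 24331 to 24756. Follicular cell markers showed 1 of 9 higher on the diet (median -0.03) and 1 higher and 1 lower with both at day 14; their summed intensity at day 14 ran from 40921 to 46491 in control and from 43499 to 48547 with both. Skeletal muscle markers differed by array (sum 5225 to 44560 over the control and both groups), with 0 of 11 called. Against the day 1 control their median was -1.80 on the diet, -2.20 with perchlorate and -0.89 with both at day 1. At day 14 those medians were 0.30, 0.40 and -0.23 against the day 14 control. The day 14 control itself was -2.22 against the day 1 control. The day 1 control arrays read 0.71 to 3.72 from the markers' own medians, and the other day 1 arrays -0.89 to 4.09. Of 8 adipocyte markers 0 were called (median -0.67 on the diet). Their median was -1.53 with both at day 1 and -1.27 with both at day 14, and Lep stayed under 16 in every group. Of 6 lymphocyte markers 0 were called (median 1.23 with both at day 14). Of the thymocyte list 1 of 5 genes was on the array with 1 symbol and it was not tested. The lymphocyte sum ran from 876 to 11296 with perchlorate at day 1, and from 947 to 1422 in its control. The median difference of lymphocyte markers from their own medians over all arrays was 2.04 on perchlorate day 1 replicate 15. It was -0.29 on replicate 16 and 0.56 on replicate 18. Replicate 15 was kept on the normal-diet side. Diet calls were 12 without it, and 11 without replicate 16 or without replicate 18. The part of these cells in the lower ribosomal protein signal was not tested.

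**Figure D5:**
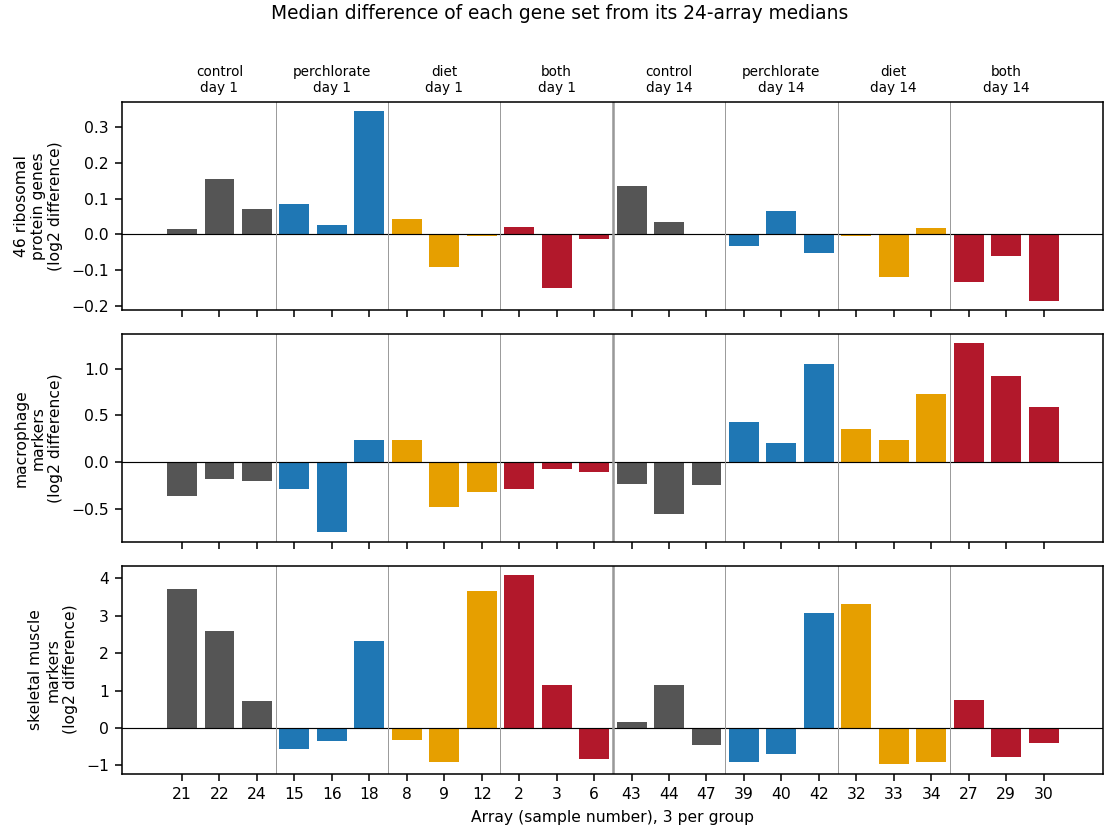
Median log2 difference of the 46 tested ribosomal protein genes (top), of the macrophage markers (middle) and of the skeletal muscle markers (bottom) from their own 24-array medians, on each array in 8 groups of 3; each panel has its own vertical scale. The ribosomal protein genes lie below 0 on all 3 arrays given both at day 14 (-0.19 to -0.06) and at 0.00 to 0.16 on the control arrays of both days, where macrophage markers lie at 0.59 to 1.27 and at -0.56 to -0.17 respectively; muscle markers reach 4.09 on replicate 2 of both at day 1.

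Scaling and single arrays changed how many members were called. With the intensities as deposited, the median of all probe sets moved by 0.12 on the diet and by 0.20 with both at day 1, and the members lay 0.21 and 0.25 below those medians. Only Rplp0 was then called on the diet, and no member with both at day 1. Without the 2 day 1 arrays that stood apart (perchlorate replicate 18 and control replicate 22), and with replicate 2 of both kept, the diet calls were 14. Leaving out 1 array at a time gave 4 to 12 calls on the diet and 1 to 3 with both at day 14. The diet calls fell to 4 without both day 1 replicate 3, diet day 14 replicate 33 or perchlorate day 14 replicate 40, and to 5 without diet day 1 replicate 9 or both day 14 replicate 27 or 30, and were 12 without perchlorate day 1 replicate 15. The F test called 5 without diet day 1 replicate 8 or perchlorate day 1 replicate 16 or 18, and 2 without both day 1 replicate 2 or both day 14 replicate 27. With both at day 14, all single arrays except replicate 29 gave 1 or 2.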

How the data were processed

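The authors deposited 1 linear intensity for each probe set on each of 24 arrays, made with GCOS per the submitters' processing notes; its version, settings and scaling target are not given in the sources used here. Of 31099 probe sets, 57 controls were left out. Array medians spanned 0.558 log2 units, above the 0.5 at which quantile normalization was to be used, so log2(intensity + 16) was quantile normalized. The dimmest 40% of probe sets by mean signal were dropped (18625 left). limma 3.58.1 (R 4.3.3) fitted 1 mean per group over 24 arrays, with eBayes and a trend, two-sided, Benjamini-Hochberg adjustment over all probe sets and a threshold of 0.05. Fold changes on this scale understate dim genes. The number of arrays limits the precision.

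Probe sets were named from the platform annotation; 46 of the 48 members matched a RefSeq table by Entrez number, with the same symbol. Named are all called members, the members with the 6 smallest F test p, the brightest and dimmest 4, paralogs, reference genes, and list members with the smallest p. The members and lists were chosen with earlier results of these data known. The fit was tested on simulated data. Alternatives covered scaling, pseudocount, filter, array weights, left-out arrays, probe set choice and subsets of groups.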

Additional observations from a re-analysis of the deposited data

How the results depend on the processing

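No member's direction reversed under any alternative in the results it was called in, and Rplp0 with both at day 14 stayed called in 16 of 16, on the diet in 36 of 37, and with both at day 1 in 13 of 16 (highest adjusted p 0.0948). Counts of called members that moved by over 1.5 times were as follows. With array quality weights they were 1 for the diet at day 1, 2 for the diet at day 14, 2 for perchlorate at day 14, 5 and 12 for both at day 1 and day 14, 2 for perchlorate on the diet at day 14, 18 for the diet over both days and 15 for the F test; in that fit calls rose over all 18625 probe sets too, to 2168 lower with both at day 14, 1443 lower on the diet and 4934 in the F test, from 512, 360 and 1452. Without both day 1 arrays that stood apart they were 2 for perchlorate at day 14, 4 and 7 for both at day 1 and day 14, 1 for perchlorate on the diet at day 14, 14 for the diet and 7 for the F test. Fitting only the groups compared gave 2 for perchlorate at day 14 and 0 and 7 for both at day 1 and day 14. Values as deposited gave 0 and 1 for both, 1 for the diet and 1 for the F test; arrays centred on their median gave 0 and 2, 2 and 1. No filter gave 2 for both at day 14 and 5 for the diet. A plain probe set where there is one gave 2 for both at day 1. That choice gave 5 for both at day 14, and averaging the probe sets of a gene gave 3, within 1.5 times of the 4 reported. Subsets chosen after seeing the data gave 5 for the diet in the day 1 groups, 0 in the day 14 groups, and 1 each without and with perchlorate, where 0.784%, 0.0161%, 0.226% and 0.0805% of all probe sets were called lower. Leaving out 1 array gave 1 to 1 calls for both at day 1, 1 to 3 for both at day 14, 4 to 12 for the diet, 2 to 5 for the F test and 0 to 0 elsewhere. On the diet the call was lost in 22 of 37 alternatives for Rpl27a, 16 for Rps15, 14 for Rps16, 10 for Rpl11, 6 each for Rps9 and Rpsa and 5 for Rpl14; with both at day 14, in 9 of 16 for Rpl7a, 8 for Rpl23a and 5 for Rpl14. The cause of these changes was not tested. No paired analysis was possible because the groups share no replicate numbers. Detection calls were not used, so signal over background is unknown for dim members.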
